A study of Homo sapiens with 9 samples.

Results

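The collagen genes were examined in TC-71, an Ewing sarcoma cell line, and in 3 lines derived from it that resist agents against the IGF-1 receptor. They were the 43 genes whose symbol is COL, a number, A and a number, out of 19775 genes that had a probe set with a single symbol on the HG-U133 Plus 2 array. Where several probe sets read a gene, the one of highest mean on the 9 arrays was used. For TC/AEW the selecting agent was the kinase inhibitor NVP-AEW541, raised to 5 µM. For TC/AVE it was AVE1642, an antibody raised to 10 µg/ml. For TC/CP it was another antibody, figitumumab, whose highest concentration is not stated in the labels. Selection lasted 6 months. All cells grew in Iscove medium with 10% fetal bovine serum, TC-71 without an agent. TC-71 was represented by 3 samples, described as biological replicates and hybridised to 1 array each. Each resistant line had 2 arrays, described as technical replicates, which were averaged into 1 sample. The labels do not say whether a line was a clone or a mixed population. A line has 1 sample, so errors of single-line comparisons rest on the spread of TC-71 alone and assume that a line varies as much.

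Collagens are proteins of the extracellular matrix whose chains carry glycine at regular intervals and wind into a helical trimer. Fibrillar collagens pack into the banded fibrils of connective tissue, and fibril-associated collagens sit on the surface of those fibrils and interrupt their own helix with non-helical stretches. The type IV chains form the network of basement membranes. The remaining members include the beaded filaments of type VI, anchoring fibrils, short-chain networks and collagens that span the cell membrane. Here 11 members were fibrillar, 6 belonged to the basement membrane, 10 were fibril-associated and 16 were placed in the other types.

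The clearest difference in the family was the lower level of COL16A1, a fibril-associated collagen, in every resistant line. It was the only collagen past the threshold in any of 6 comparisons. COL5A2 and COL5A1, which encode chains of the same type V collagen, lay on opposite sides of TC-71 in all 3 lines, without passing the test. COL4A1 and COL4A2, the chains of the common basement membrane collagen, were higher than in TC-71 in TC/AEW and TC/CP, also without passing. Their means were lower in TC/AVE, at levels near background, and COL4A1 overlapped TC-71 there. COL3A1 had its lowest level in TC/AVE, and COL1A1 its highest in TC/CP.

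Levels are log2 expression values, and errors of differences are moderated standard errors (SE). A gene was tested if its level was 5 or more on at least 2 of the 9 arrays. This kept 23 of the 43 collagens, or 53.5%, against 71.7% of all genes. The kept collagens were 8 of 11 fibrillar, 2 of 6 basement membrane, 5 of 10 fibril-associated and 8 of 16 other members. The 20 members left out read between 2.68 and 5.17 on every array. Just outside the filter, COL9A1, COL19A1 and COL22A1 reached 5 on 1 array each. Just inside it, COL4A1 reached 5 on 6 arrays, and COL4A2 and COL8A2 on 7. Among the members left out was COL1A2, partner of COL1A1 in type I collagen, at 4.26 to 4.76. COL6A3, the third chain of type VI collagen, read 4.06 to 4.95 and was left out too, as were COL12A1 and COL14A1 of the fibril-associated group. COL4A3, COL4A4, COL4A5 and COL4A6, the basement membrane chains of restricted tissue distribution, lay between 3.53 and 4.14 on all arrays.

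The arrays had medians from 5.39 to 5.45. All 9 measured markers of Ewing sarcoma passed the filter, with CD99 at 12.8 or more and NKX2-2 between 8.72 and 9.40 over the 6 samples. Their mean was 9.08 to 9.42 in the TC-71 samples, 9.31 in TC/AEW, 9.15 in TC/AVE and 9.01 in TC/CP. Not all were high or steady. CCK read 5.18 to 6.02. LIPI read 7.09, 6.48 and 7.45 in TC-71, 5.82 in TC/AEW, 5.23 in TC/AVE and 5.33 in TC/CP. The mean over markers of blood, endothelial or epithelial cells was 4.09 to 4.75 in every sample. Some of them nevertheless read above 5, KRT5 up to 5.46, HBB up to 6.02 and PECAM1 up to 6.32. A collagen level of about 6 or less may therefore be background, and a difference from such a level may be a lower bound. The names of the array files fall into 3 sets. TC-71 sample 1 is alone in the first. TC/AEW and TC/AVE are in the second, beside TC-71 sample 2, and TC/CP is in the third, beside TC-71 sample 3.

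The resistant lines in common were compared with TC-71 to find expression shared by resistance to different agents. Of the 23 collagens tested, 1 passed the threshold of 0.05 on the adjusted p (limma, Benjamini-Hochberg over all 14172 genes), against 0.0212% of all genes. At an unadjusted p under 0.05 there were 5 collagens (COL16A1, COL5A1, COL5A2, COL21A1 and COL27A1), or 21.7%, against 8.39% of all genes. The median difference of the 23 was -0.21, beside -0.01 for all genes, with 8 collagens higher and 15 lower. This median was near 0 under several alternatives: -0.02 without TC-71 sample 1 (10 higher, 13 lower), 0.0041 without TC/AVE (12 and 11), -0.0063 with the array set as a block (11 and 12) and 0.02 with no _x_at or _s_at probe sets (9 and 8). All resistant arrays lay above all TC-71 arrays for 2 collagens, or 8.7% (5.2% of all genes), and below for 3, or 13% (4.33% of all genes). At least 2-fold higher were 0 collagens (1.09% of all genes) and at least 2-fold lower was 1, or 4.35% (0.494% of all genes). Over the 6 samples, 12 collagens ranged over at least 2-fold, or 52.2%, against 20.2% of all genes. This range includes the spread within TC-71, as for COL9A2, at 6.11, 5.10 and 5.44 there. The labels name no TC-71 culture passaged in parallel with the selection, so resistance and time in culture cannot be told apart.

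**Figure D1:**
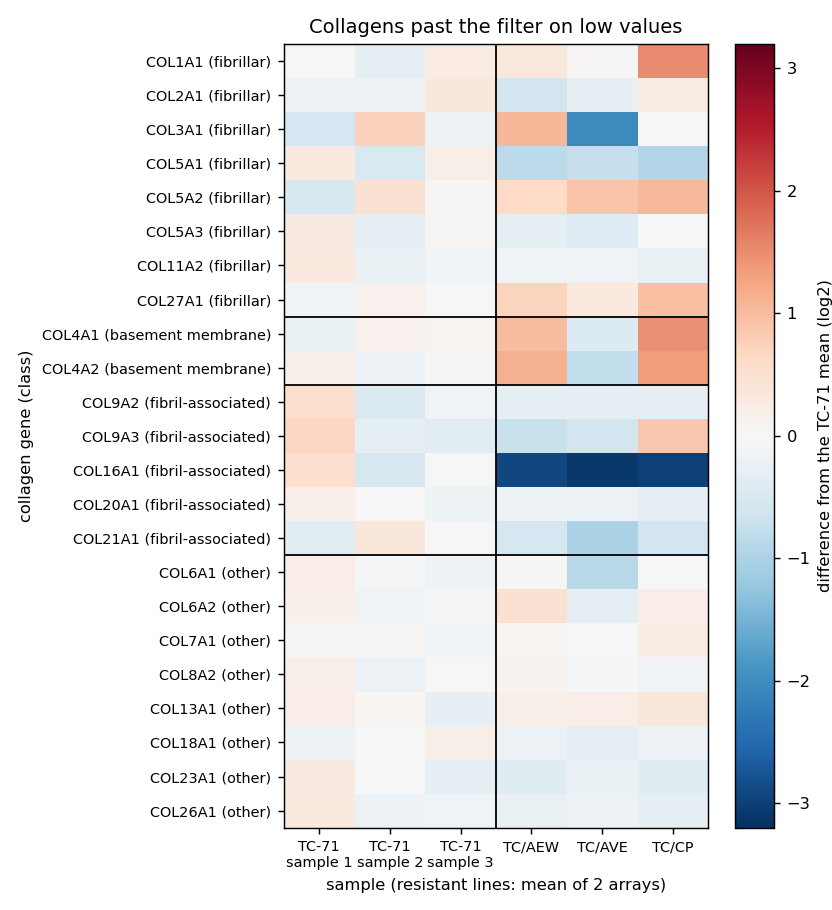
Difference of each sample from the TC-71 mean (colour, log2 scale) for the 23 collagens past the filter on low values, with resistant lines as the mean of 2 arrays and classes separated by black lines. COL16A1 is lower by 2.91 to 3.08 in all 3 lines. COL4A1 and COL4A2 are higher in TC/AEW and TC/CP and lower in TC/AVE, where both read near background.

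Among the fibril-associated collagens, COL16A1 encodes the chain of type XVI collagen, a minor component found near fibrils and basement membranes. Its levels in TC-71 samples 1, 2 and 3 were 8.88, 7.81 and 8.32. They were 5.13 and 5.72 on the TC/AEW arrays, 5.12 and 5.40 on the TC/AVE arrays, and 5.58 and 5.11 on the TC/CP arrays. The lowest TC-71 sample thus lay above the highest resistant array by more than the whole spread of either group. COL16A1 fell by 2.99 ± 0.26 in the lines in common (7.96-fold, adjusted p = 0.0356 by limma). The levels in the lines were near background, so this fold may be a lower bound. In bulk RNA, fewer expressing cells and less RNA per cell cannot be told apart. Alternatives of filter and probe set cannot change the size of the difference, since 1 probe set reads the gene. Under the other alternatives the size was between -3.25 and -2.69. The call was lost with 1 sample or line left out (adjusted p from 0.0513 to 0.21 by limma), with no filter on low values (0.0737) and with the array set as a block (0.133).

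Taken singly, the differences of COL16A1 were -2.91 ± 0.44 in TC/AEW, -3.08 ± 0.44 in TC/AVE and -2.99 ± 0.44 in TC/CP. None passed on its own (adjusted p of 0.734, 0.26 and 0.396 by limma). The 3 comparisons share the TC-71 samples. Within array sets, against the 1 TC-71 sample of the same set, the differences were -2.39, -2.55 and -2.97, with no test. Between the lines the level of COL16A1 differed by 0.12 ± 0.46 (TC/AEW minus the average of TC/AVE and TC/CP) and by -0.09 ± 0.53 (TC/AVE minus TC/CP). One probe set reads this gene, so no other probe set could be set beside it.

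COL16A1 lies on chromosome 1, from 31652263 to 31704017 in GRCh38.p14, on the minus strand. The 250 bases before its start are shown because this is the collagen that passed the test. The stretch is chr1:31704018-31704267, minus strand, 5′ to 3′, from RefSeq, with matches to the GC box GGGCGG on either strand in capitals (CCAAT, searched in the same way, is not in the stretch):
COL16A1: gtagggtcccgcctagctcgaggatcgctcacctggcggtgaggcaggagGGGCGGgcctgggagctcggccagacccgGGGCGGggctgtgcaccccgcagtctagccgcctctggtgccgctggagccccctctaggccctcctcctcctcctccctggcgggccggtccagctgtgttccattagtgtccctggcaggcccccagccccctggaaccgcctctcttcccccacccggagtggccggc

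This stretch holds 2 GC boxes and has 73.2% G and C. Over all 35116 promoter windows of 300 bases in the RefSeq table, 45.0% hold the GC box, so its presence here is ordinary. The table matched 31 of the 43 collagens, with 43 windows, of which 24 (55.8%) hold the GC box. The repeat GGAAGGAA, of the kind that the fusion factor of Ewing sarcoma is known to bind, was in 0 of these 43 windows and in 3.67% of all windows. Such windows do not reach distant sites.

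COL21A1, another fibril-associated collagen, had 9.84, 10.6 and 10.2 in TC-71 samples 1, 2 and 3. Its arrays read 9.75 and 9.59 in TC/AEW, 9.16 and 9.25 in TC/AVE, and 9.66 and 9.53 in TC/CP. Every resistant array thus lay below every TC-71 sample, with the nearest ones close together. The difference in the lines in common was -0.72 ± 0.22 (unadjusted p = 0.0136, adjusted p = 0.445 by limma), and the largest single-line difference was 2-fold, in TC/AVE (unadjusted p = 0.0288, adjusted p = 0.616 by limma). The other fibril-associated members tested, COL9A2, COL9A3 and COL20A1, had differences of -0.30, -0.14 and -0.22 in the lines in common. All 5 were thus below 0 there, with a class median of -0.30, as were 7237 of all 14172 genes. Within TC-71, COL9A2 and COL9A3 were highest in sample 1, at 6.11 and 7.04. In the other samples of TC-71 they read 5.10 to 5.44 and 6.01 to 6.06, so both differences lean on sample 1. In TC/CP alone COL9A3 was above the TC-71 mean, by 0.87.

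COL9A3, a chain of the type IX collagen of cartilage, is given as a gene chosen after its values were seen. It had 7.04, 6.06 and 6.01 in the TC-71 samples, near 5.66 in TC/AEW and 5.78 in TC/AVE, and 7.38 and 7.10 on the TC/CP arrays. The difference between TC/AVE and TC/CP was -1.46 ± 0.58 (adjusted p = 0.877 by limma). All arrays of TC/AEW and TC/AVE were below and those of TC/CP above all TC-71 samples, but TC-71 sample 1 was close to the lower TC/CP array. Within its array set the TC/CP difference was 1.23, with no test.

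Among the fibrillar collagens, COL5A2 encodes the alpha2 chain of type V collagen, which sets the diameter of type I fibrils. It read 9.72, 10.7 and 10.3 in TC-71 samples 1, 2 and 3. The arrays read 10.9 and 10.8 in TC/AEW, 11.2 and 11.2 in TC/AVE, and 11.3 and 11.3 in TC/CP. All resistant arrays were above all TC-71 samples, closely so for TC-71 sample 2 and TC/AEW. The difference in the lines in common was 0.87 ± 0.26 (1.82-fold, unadjusted p = 0.0119, adjusted p = 0.434 by limma). Within array sets it was 0.15 in TC/AEW, 0.45 in TC/AVE and 1.02 in TC/CP, values with no test. The second probe set gave 0.80 in the lines in common.

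COL5A1 encodes the alpha1 chain, which joins COL5A2 in the main form of type V collagen. It was added after its values were seen. TC-71 samples 1, 2 and 3 had 8.07, 7.26 and 7.93. The arrays read 6.82 and 7.04 in TC/AEW, 7.04 and 6.99 in TC/AVE, and 6.78 and 6.88 in TC/CP, all below the lowest TC-71 sample. The difference in the lines in common was -0.83 ± 0.22 (unadjusted p = 0.00726, adjusted p = 0.39 by limma). All 3 of its probe sets were lower, by -0.58, -0.83 and -0.86. Within array sets the differences were -0.33 in TC/AEW, -0.24 in TC/AVE and -1.11 in TC/CP. Both chains were thus on their own side of TC-71 in every line, the alpha2 chain higher and the alpha1 chain lower, and neither passed over all genes.

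**Figure D2:**
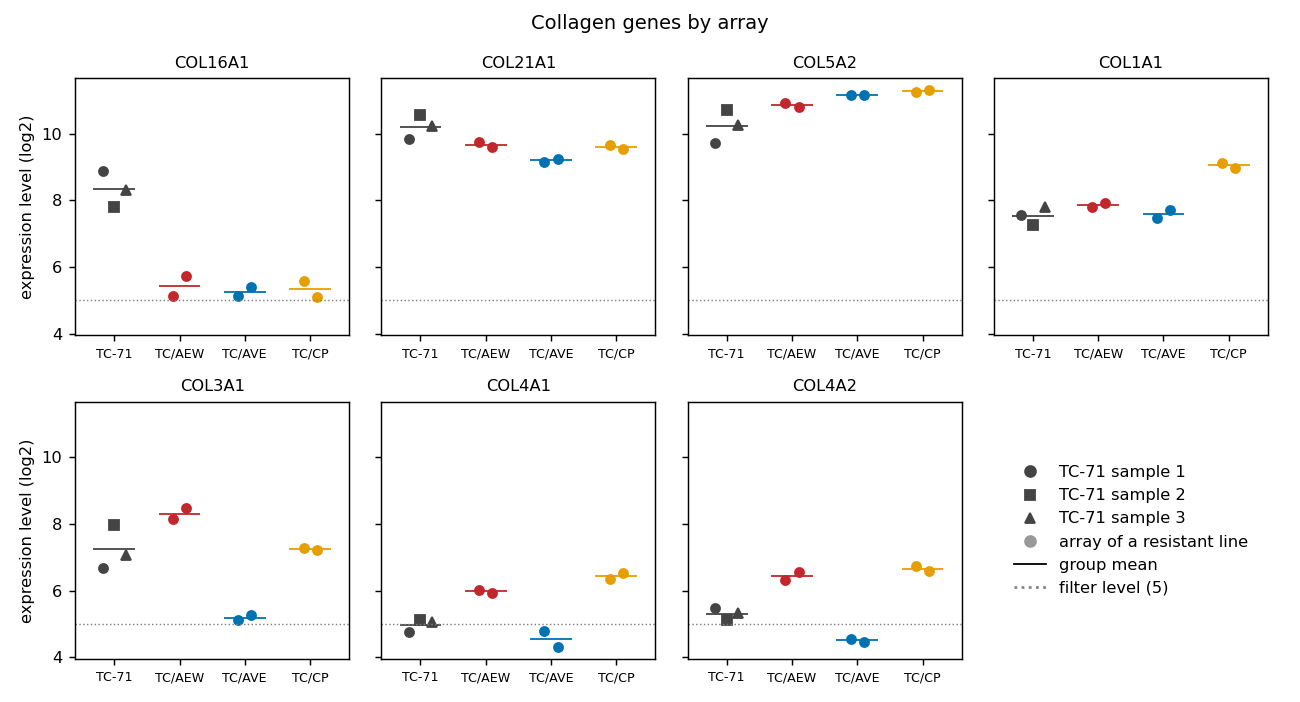
Expression level (log2) of 7 collagens on each of the 9 arrays, with TC-71 samples marked by shape, group means as horizontal lines and the filter level of 5 dotted. COL16A1 lies between 5.11 and 5.72 on all resistant arrays and above 7.8 in TC-71, and COL3A1 in TC/AVE and COL1A1 in TC/CP stand apart from the other groups.

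COL3A1, the chain of type III collagen of soft connective tissue, varied within TC-71 too, at 6.67, 7.97 and 7.08. It read 8.15 and 8.47 in TC/AEW, 5.12 and 5.26 in TC/AVE, and 7.28 and 7.24 in TC/CP. TC/AVE was below and TC/AEW above every TC-71 sample, while TC/CP lay among them. The differences from TC-71 were 1.07 ± 0.53 in TC/AEW, -2.05 ± 0.53 in TC/AVE and 0.02 ± 0.53 in TC/CP, and none passed (adjusted p of 1, 0.544 and 0.998 by limma). Within array sets they were 0.34 in TC/AEW, -2.78 in TC/AVE and 0.18 in TC/CP, with no test. The TC/AVE level was near background, so differences from it may be lower bounds. Between TC/AEW and TC/AVE, which share an array set, the levels differed by 3.11, a value with no test. TC/AVE stood 2.07 ± 0.64 below TC/CP (adjusted p = 0.74 by limma), a contrast across array sets.

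The other kept probe sets of COL3A1 gave -1.38, -0.71 and -0.15 in TC/AVE, and the last 2 of these read at or near background in all samples. The one that was not kept, at background throughout, gave 0.006. Fibroblast markers were looked at beside this gene, since COL3A1 is abundant in fibroblasts. Of 8 markers, 7 passed the filter, and POSTN did not, at 3.03 to 3.22. The mean over the 8 was 5.96 to 6.44 in the TC-71 samples, 6.81 in TC/AEW, 6.08 in TC/AVE and 6.10 in TC/CP. LUM, a proteoglycan of collagen fibrils, was singled out after its values were seen, since it too was highest in TC/AEW and low in TC/AVE and TC-71 sample 1. Its levels were 3.55, 6.51 and 5.61 in TC-71 samples 1, 2 and 3, 8.36 in TC/AEW, 3.78 in TC/AVE and 5.38 in TC/CP. DCN, another such proteoglycan, instead had its highest level in TC/AVE, at 8.55. The part of these markers in the result was not tested.

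COL5A2 lies 19151 bases from COL3A1 on chromosome 2 in GRCh38.p14. In TC/AVE the neighbours differed from TC-71 by 0.92 ± 0.41 and -2.05 ± 0.53, so these neighbours lay on opposite sides of TC-71 there. In the same order they differed by 0.63 and 1.07 in TC/AEW, and by 1.05 and 0.02 in TC/CP.

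COL1A1 encodes the alpha1 chain of type I collagen, the main protein of bone and tendon. It read 7.56, 7.27 and 7.80 in TC-71 samples 1, 2 and 3. The arrays read 7.80 and 7.93 in TC/AEW, 7.46 and 7.72 in TC/AVE, and 9.11 and 8.98 in TC/CP. All TC/CP arrays lay above all TC-71 samples, with a difference of 1.50 ± 0.28 (2.83-fold, unadjusted p = 0.00306, adjusted p = 0.52 by limma). Within array sets the differences were 0.60 in TC/AEW, 0.32 in TC/AVE and 1.24 in TC/CP, with no test. TC/AVE was 1.45 ± 0.34 below TC/CP (adjusted p = 0.548 by limma).

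The probe sets of COL1A1 disagreed in TC/CP. A second one gave 1.11, and the remaining ones that passed the filter gave -0.23 and -0.06. Its partner COL1A2 stayed under 5 on all arrays, so the chains of type I collagen were not both measured above background in any line.

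COL27A1, a fibrillar collagen of developing cartilage, was added after its values were seen. It had 6.08, 6.32 and 6.16 in the TC-71 samples. The arrays read 7.01 and 6.80 in TC/AEW, 6.52 and 6.47 in TC/AVE, and 7.10 and 7.21 in TC/CP, all above TC-71. The difference in the lines in common was 0.66 ± 0.19 (unadjusted p = 0.00976, adjusted p = 0.41 by limma). Its other kept probe sets gave 0.84, 0.02 and -0.08. The TC-71 levels of COL27A1 were close to those that may be background. COL2A1, COL5A3 and COL11A2, the other fibrillar members tested, had differences between -0.24 and -0.16 in the lines in common. The median of all 8 fibrillar members was -0.18, with 3 of them above TC-71 and 5 below.

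**Figure D3:**
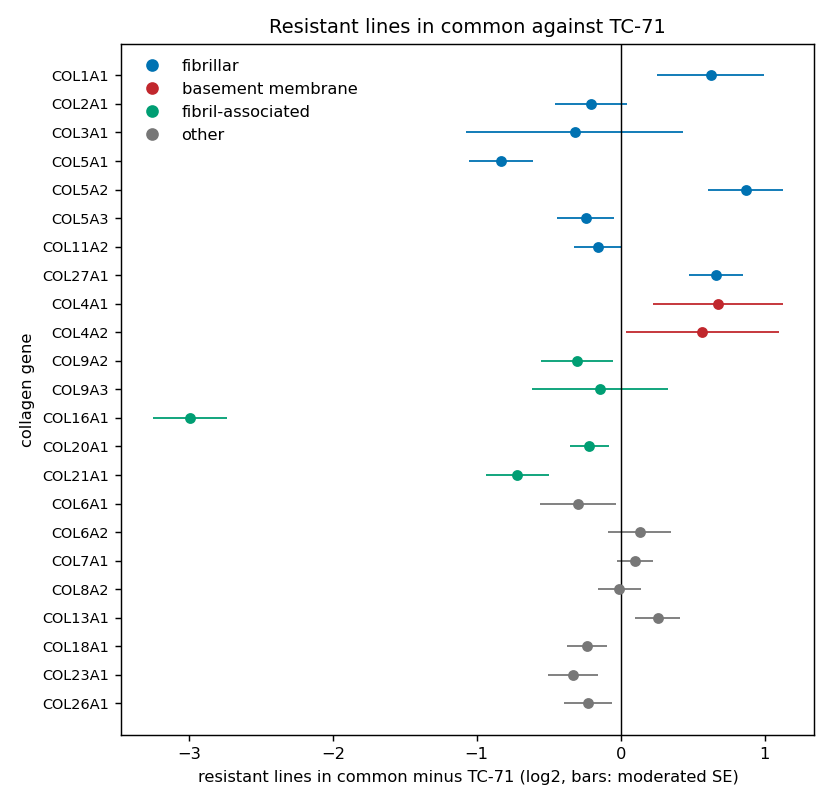
Difference of the resistant lines in common from TC-71 (points, log2 scale) with moderated SE (bars) for the 23 collagens tested, coloured by class. COL16A1 at -2.99 stands apart, and the next farthest are COL5A2 at 0.87 and COL5A1 at -0.83.

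The basement membrane group held COL4A1 and COL4A2, whose products join as the trimer found in nearly all basement membranes. COL4A1 read 4.76, 5.12 and 5.06 in TC-71 samples 1, 2 and 3. The arrays read 6.03 and 5.93 in TC/AEW, 4.79 and 4.31 in TC/AVE, and 6.36 and 6.52 in TC/CP. COL4A2 read 5.48, 5.11 and 5.33 in TC-71, then 6.33 and 6.57 in TC/AEW, 4.57 and 4.47 in TC/AVE, and 6.74 and 6.58 in TC/CP. For both genes TC/AEW and TC/CP lay above every TC-71 sample. TC/AVE lay below them for COL4A2 and overlapped them for COL4A1.

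Against TC-71, COL4A1 differed by 1.00 ± 0.25 in TC/AEW, -0.43 ± 0.25 in TC/AVE and 1.46 ± 0.25 in TC/CP. COL4A2 differed by 1.14 ± 0.24, -0.79 ± 0.24 and 1.35 ± 0.24 in the same order. Both were close to background in TC-71 and TC/AVE, as was COL4A1 in TC/AEW, at about 6. Differences between 2 such levels may themselves be background, and the other sizes may be lower bounds. None passed over all genes, with adjusted p from 0.456 to 1 (limma). Within array sets COL4A1 gave 0.86, -0.57 and 1.39, and COL4A2 gave 1.33, -0.59 and 1.32. The contrast of the antibody-selected lines was larger, at -1.89 ± 0.30 for COL4A1 (adjusted p = 0.431 by limma) and -2.14 ± 0.30 for COL4A2 (adjusted p = 0.375 by limma) in TC/AVE minus TC/CP. Between TC/AEW and TC/AVE, in 1 array set, the values were 1.43 and 1.93 with no test. A second probe set of COL4A1, near background at 4.69 to 5.42 over the samples, gave 0.54 in TC/AEW, -0.19 in TC/AVE and 0.33 in TC/CP. These were the same signs with smaller sizes in all 3 lines. By that probe set TC/AEW, at 5.42, lay above TC/CP, at 5.21. The other probe set of COL4A2 was not kept by the filter and read 3.91 to 4.87 over the samples. It gave 0.59 in TC/AEW, -0.0019 in TC/AVE and 0.75 in TC/CP.

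These genes sit head to head on chromosome 13 in GRCh38.p14, COL4A1 on the minus strand from 110148963 to 110307157 and COL4A2 on the plus strand from 110307284 to 110513209. The 126 bases between their starts are shown because, by the probe sets used, both genes were lowest in TC/AVE and above TC-71 in TC/AEW and TC/CP. COL4A4 and COL4A3 on chromosome 2 share the same layout over 135 bases and stayed near background in all samples, and their stretch is shown beside it. The stretches are chr13:110307158-110307283 and chr2:227164489-227164623, plus strand, 5′ to 3′, from RefSeq, with matches to GGGCGG and to CCAAT on either strand in capitals:
COL4A1-COL4A2: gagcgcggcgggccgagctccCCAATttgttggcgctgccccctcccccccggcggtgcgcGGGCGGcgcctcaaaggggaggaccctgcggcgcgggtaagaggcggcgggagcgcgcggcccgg
COL4A4-COL4A3: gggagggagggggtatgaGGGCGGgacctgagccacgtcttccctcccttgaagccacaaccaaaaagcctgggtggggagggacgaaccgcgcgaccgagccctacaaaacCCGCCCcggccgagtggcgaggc

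The COL4A1-COL4A2 stretch holds 1 GC box and 1 CCAAT box and has 80.2% G and C. The COL4A4-COL4A3 stretch holds 2 GC boxes and no CCAAT, with 68.1% G and C. The motif CCAAT is in 34.6% of all promoter windows of 300 bases and in 13 of the 43 collagen windows (30.2%). A TATAAA match is in neither stretch.

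Of the other collagens, COL6A1 and COL6A2 encode chains of type VI collagen, the beaded filament around cells. They were chosen after their values were seen, as a pair of partners. COL6A1 read 7.12, 6.83 and 6.75 in TC-71, 6.93 in TC/AEW, 6.01 in TC/AVE and 6.88 in TC/CP. COL6A2 read 6.65, 6.38 and 6.41 in TC-71, 6.96 in TC/AEW, 6.17 in TC/AVE and 6.70 in TC/CP. Both were below every TC-71 sample in TC/AVE, with differences of -0.89 ± 0.25 and -0.31 ± 0.23. Neither passed (adjusted p of 0.569 and 0.914 by limma). The 4 other kept probe sets of COL6A1 gave -0.39 to -0.02 in TC/AVE, and the second of COL6A2 gave 0.16. By the probe set used, COL6A1 in TC/AVE was at a level that may be background.

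COL13A1, a collagen that spans the cell membrane, had a difference of 0.36 ± 0.27 in TC/CP by the probe set used here, of a kind (_x_at) prone to cross-hybridisation. Another probe set of the gene, singled out after its values were seen, gave 1.53 in TC/CP, from a TC-71 mean of 5.35. The remaining members (COL7A1 of anchoring fibrils, COL8A2 of short-chain networks, COL18A1 of basement membrane zones, COL23A1 of cell membranes and COL26A1) differed from TC-71 by -0.33 to 0.10 in the lines in common.

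**Figure D4:**
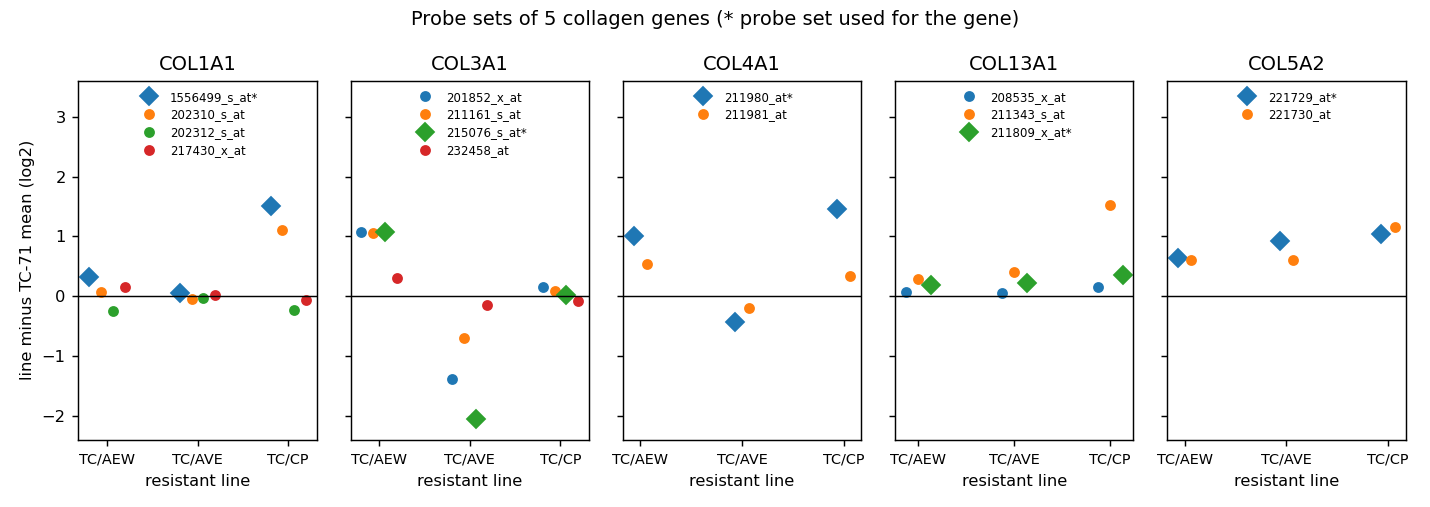
Difference of each resistant line from the TC-71 mean (log2 scale) for every probe set past the filter of 5 collagens, with a diamond for the probe set used for the gene. The probe sets of COL5A2 lie close together. Those of COL1A1, COL4A1 and COL13A1 in TC/CP and of COL3A1 in TC/AVE spread over more than 1 on the log2 scale.

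Line by line, 0 of the 23 collagens passed in TC/AEW, TC/AVE or TC/CP (limma), against 0% of all genes in each. At an unadjusted p under 0.05 there were 4 in TC/AEW (3.52% of all genes), 5 in TC/AVE (7.23%) and 5 in TC/CP (4.93%). Every array of TC/AVE lay below all TC-71 arrays for 10 collagens, or 43.5%, against 19.8% of all genes. The 10 were COL16A1, COL21A1, COL9A3, COL2A1, COL3A1, COL5A1, COL5A3, COL4A2, COL6A1 and COL6A2. In the opposite direction there were 2 (COL5A2 and COL27A1), or 8.7%, against 19.6%. The median difference in TC/AVE was -0.31 beside -0.02 for all genes, with 18 collagens lower and 5 higher. Without TC-71 sample 1 the counts were 15 and 8. Under both rescalings of the arrays 18 or 19 were lower.

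In TC/CP the balance was even, with 12 higher and 11 lower and a median of 0.01 beside -0.00 for all genes. All its arrays lay above TC-71 for 7 collagens, or 30.4% (21.2% of all genes), and below for 6, or 26.1% (17% of all genes). In TC/AEW they lay above for 6, or 26.1% (15.4% of all genes), and below for 6, or 26.1% (14.3% of all genes). At least 2-fold above TC-71 were COL1A1, COL4A1, COL4A2 and COL5A2 in TC/CP, which is 17.4% beside 2.41% of all genes. In TC/AEW they were COL3A1 and COL4A2, which is 8.7% beside 1.75%. In TC/AVE there was none so far above, beside 1.96% of all genes. At least 2-fold below were COL16A1 in all 3 lines and, in TC/AVE, COL3A1 and COL21A1, which makes 13% there beside 1.72%. COL16A1 alone is 4.35% of the members, beside 0.466% of all genes in TC/AEW and 0.776% in TC/CP.

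Tests of the difference between lines called no collagen either (limma, 0% of all genes in both). For TC/AEW against the mean of the antibody-selected lines, 2 collagens had an unadjusted p under 0.05 (COL3A1 and COL4A2), or 8.7%, against 1.81% of all genes. COL3A1 was the one at least 2-fold higher in TC/AEW, or 4.35%, against 0.981% of all genes. For TC/AVE against TC/CP there were 5 (COL1A1, COL3A1, COL4A1, COL4A2 and COL6A1), or 21.7%, against 5.78%. All 5 were lower in TC/AVE, and 17 of the 23 collagens were, with a median of -0.23 beside -0.00 for all genes. This contrast, also where given for single genes above, is across array sets, so line and array set cannot be told apart. At least 2-fold lower in TC/AVE were 5 (COL1A1, COL3A1, COL4A1, COL4A2 and COL9A3), or 21.7%, against 3.23%, and 0 were as far higher, against 1.49%.

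The enzymes and chaperones that modify and fold collagen in the endoplasmic reticulum were measured as a list of 22 genes, all past the filter. In the lines in common 13 were higher, 9 lower and 0 passed (limma), with a median of 0.06. P4HA2, a subunit of prolyl 4-hydroxylase, had 5.88, 7.16 and 6.21 in TC-71, 7.27 in TC/AEW, 8.10 in TC/AVE and 6.91 in TC/CP. Its difference was 1.01 ± 0.41 (adjusted p = 0.58 by limma), with TC-71 sample 2 above TC/CP.

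Of 21 genes that process, cross-link or organise collagen outside the cell, 17 were tested, with 8 higher, 9 lower, 0 past the threshold (limma) and a median of -0.10. PCOLCE, which enhances cleavage of procollagen at its C end, had 9.74, 9.46 and 9.55 in TC-71. It had 8.43 in TC/AEW, 7.27 in TC/AVE and 8.29 in TC/CP, below every TC-71 sample. The difference was -1.59 ± 0.30 (unadjusted p = 0.00112, adjusted p = 0.233 by limma).

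Of 9 collagen receptors measured, 8 were tested, with 5 higher, 3 lower, 0 past the threshold (limma) and a median of 0.05. ITGA2, the alpha2 integrin chain that binds fibrillar collagens, was the one at least 2-fold apart. It had 4.47, 5.67 and 5.39 in TC-71, 6.71 in TC/AEW, 6.90 in TC/AVE and 6.68 in TC/CP, a difference of 1.59 ± 0.30 (adjusted p = 0.233 by limma) from a level near background. Of 15 genes of collagen degradation and its inhibitors, 12 were tested, with 6 higher, 6 lower and 0 past the threshold (limma). Their median was -0.02, and none was 2-fold apart in the lines in common.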

How the data were processed

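RNA of 9 HG-U133 Plus 2 arrays was analysed. The authors deposited log2 expression values per probe set, made with RMA in affy according to the submitters' processing notes, which name no version. RMA equalises array distributions, so a shift of all genes would not show. Probe sets were named from GEO's platform annotation, leaving out 62 control probe sets. Of 54613, 41091 had 1 symbol, 1801 several and 11721 none, and 0 symbols needed updating against RefSeq (41037 matched by gene identifier).

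Each gene was read from its probe set with the highest mean over 9 arrays. Genes with at least 2 arrays at 5 or more (14172) were fitted in R 4.3.3 with limma 3.58.1. Tests were two-sided, and p-values were adjusted over all genes by Benjamini-Hochberg. The fit of the lines in common (3 samples against 3) had 4 residual degrees of freedom and the fit of 4 groups had 2. The TC-71 samples are called biological replicates without mention of separate cultures, so their spread may be technical. In the fit of 4 groups, p-values cover that spread alone. For the lines in common they also cover the spread between the 3 lines, which that fit treats as replicates. The number of arrays limits precision. Values in every sample were given for collagens past the threshold, at least 1 apart on the log2 scale from TC-71, or with a mean of 8 or more, and for genes marked as chosen later. Of the lists (modification and folding, processing and cross-linking, receptors, degradation), up to 4 members at least 1 apart in the lines in common were given. The members and lists were chosen with earlier results of these data known. Alternatives covered the filter, the probe set, array scaling, the array set and each sample left out.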

Additional observations from a re-analysis of the deposited data

How the results depend on the processing

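In the lines in common, 1 collagen (COL16A1) was called, also with a filter at 6, under the other choices of probe set, and with arrays centred or quantile-normalised. As 1 probe set reads COL16A1, the filter and the choice of probe set could not change its difference. The count was 0 with no filter on low values, 0 with the array set as a block, and 0 with any TC-71 sample or line left out. In all other comparisons 0 were called under every alternative run. No paired analysis was possible because replicate numbers mark samples in TC-71 and technical arrays in the lines, so they match no line with a TC-71 sample. The array set was the block tried.

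Among the collagens named by the rule, signs turned for COL3A1 and COL1A1. For COL3A1 in the lines in common (-0.32) the difference was 0.022 with no _x_at or _s_at probe sets, 0.046 without TC-71 sample 2 and 0.54 without TC/AVE. Leaving out 1 TC-71 sample gave -0.61 to 0.046, and leaving out 1 line gave -1.01 to 0.54. For COL3A1 in TC/CP (0.020) it was -0.084 with no _x_at or _s_at probe sets, -0.072 with arrays centred, -0.043 with quantile normalization, and -0.27 to 0.39 with 1 TC-71 sample left out. For COL1A1 in TC/AVE (0.047) it was -0.091 to 0.18 with 1 TC-71 sample left out. The causes were not tested. Signals near background limit COL4A1, COL4A2, COL3A1 in TC/AVE and COL16A1 in the resistant lines.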
